A study of Homo sapiens with 6 samples.

Results

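The genes described here are 38 genes of DNA replication and mitosis. They were chosen by name and by no cut on measured values, but with earlier results of these data known. All 38 were found, 1 row each, among the 58735 genes of the table, and all 38 were among the 12177 genes tested. By role, 17 are replication genes, of licensing, the G1/S switch and DNA synthesis, and 21 are mitotic genes. RNA was measured by sequencing in SZ95 cells, an immortalised human line from the sebaceous gland. The mock group (3 libraries, labelled wild type) received a mock plasmid. The TRPV3 group (3 libraries, labelled TRPV3 overexpression) received a plasmid that overexpresses TRPV3, a calcium-permeable cation channel. Both groups carry the time label 24 h, and the design text calls the replicates biological; the study's stated question was the part of TRPV3 in inflammation of sebocytes. SZ95 cells were immortalised with the large T antigen of the virus SV40, which binds retinoblastoma proteins, so both groups are a model in which the brake on E2F factors is already altered.

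A cell copies its DNA once per division. Licensing factors load the MCM helicase at origins, E2F factors switch on cyclin E and the enzymes that make and copy DNA, and later cyclin B with CDK1 starts mitosis, which the spindle checkpoint and the anaphase-promoting complex then bring to an end. Many replication genes are known targets of E2F factors, and many mitotic genes carry a CHR element (cell cycle genes homology region) bound by the DREAM and MuvB complexes. In sebaceous glands, division is known from the basal cells at the edge of the lobule and stops as cells fill with lipid. RNA of these genes is widely used as a readout of division in a culture. In bulk libraries, fewer dividing cells and less of such RNA per dividing cell cannot be told apart.

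The 2 classes carried different letters in their promoters. RefSeq promoter windows (GRCh38.p14, 250 bases before to 50 bases from the start) were at hand for 30 of the 38 genes; MCM4, MCM5, CCNE2, AURKA, FOXM1, TPX2, BIRC5 and UBE2C had none. An E2F match was any of TTTCCCGC, TTTCGCGC, TTTGCCGC or TTTGGCGC on either strand; matches on both strands can overlap and were counted separately. It was present for 10 of 14 replication genes (71.4%) and 2 of 16 mitotic genes (12.5%), against 3.99% of all 27305 genes with a window and 3.31% of all 35116 windows. A CHR match, TTTGAA or TTCGAA on either strand, was present for 2 of 14 replication genes (14.3%) and 11 of 16 mitotic genes (68.8%), against 19.5% of all genes with a window and 16.4% of windows. The CCAAT box, CCAAT on either strand, which can share an end base with a CHR match, was present for 10 of 14 (71.4%) and 14 of 16 (87.5%), against 39.7% of all genes and 34.6% of windows. A match is a description of the letters, not a proven site.

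Of these, 2 replication and 2 mitotic promoters are printed to let the letters be seen, from 160 bases before to 40 bases from the start, 5′ to 3′ on the gene's strand. MCM6 holds 4 overlapping E2F matches in 2 copies of the same palindrome-like stretch, and E2F1, a gene of the E2F family itself, holds 2. CCNB2 and PLK1 each hold 1 CHR match, both starting 29 bases before the start. Capitals mark E2F matches in the first 2 and the CHR match in the last 2.
MCM6 (chr2:135876404-135876603, minus strand): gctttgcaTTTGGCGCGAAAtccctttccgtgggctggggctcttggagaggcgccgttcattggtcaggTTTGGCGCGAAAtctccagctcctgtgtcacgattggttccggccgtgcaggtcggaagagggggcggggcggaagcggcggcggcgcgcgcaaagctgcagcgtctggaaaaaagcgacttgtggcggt
E2F1 (chr20:33686346-33686545, minus strand): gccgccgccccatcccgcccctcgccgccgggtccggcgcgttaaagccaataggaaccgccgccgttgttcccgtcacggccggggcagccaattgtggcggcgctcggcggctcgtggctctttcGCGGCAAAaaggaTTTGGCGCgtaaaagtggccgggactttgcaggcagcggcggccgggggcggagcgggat
CCNB2 (chr15:59104986-59105185, plus strand): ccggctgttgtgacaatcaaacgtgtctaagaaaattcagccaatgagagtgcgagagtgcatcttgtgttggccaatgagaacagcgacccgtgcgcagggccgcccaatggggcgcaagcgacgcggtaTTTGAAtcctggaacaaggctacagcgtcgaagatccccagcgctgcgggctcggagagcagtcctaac
PLK1 (chr16:23678729-23678928, plus strand): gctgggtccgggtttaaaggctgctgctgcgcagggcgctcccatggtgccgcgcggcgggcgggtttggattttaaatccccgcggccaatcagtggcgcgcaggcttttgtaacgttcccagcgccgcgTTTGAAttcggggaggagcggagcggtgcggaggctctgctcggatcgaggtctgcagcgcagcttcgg

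The transfected gene was read first, since it checks the labels. TRPV3 was at 0.437, 0.359 and 0.415 FPKM in mock replicates 1 to 3, and at 536, 671 and 738 FPKM in TRPV3 replicates 1 to 3. The difference was 8.84 on the log2 scale with an SE of 0.12 (limma adjusted p = 2.7e-07). FPKM are sequenced fragments divided by the length of the merged exons and by a scaling factor of each library. Whole reads recovered from the FPKM totalled 16.0 to 18.4 M per library, and every one of the 38 genes had at least 139 reads in every library. Epithelial keratins of the sebocyte list were abundant, such as KRT7 at 513 ± 15.4 FPKM with mock (SD, n = 3). The summed level of 5 fibroblast markers was 2.37 to 2.88 FPKM with mock and 2.05 to 2.20 with TRPV3, nearly all of it COL1A1, and that of 4 immune markers 1.35 to 1.80 and 1.06 to 1.80, nearly all of it CD14. PDGFRA, PTPRC and CD3E were at 0 in every library but mock replicate 3, where they were at 0.0451, 0.0479 and 0.0193 FPKM. The sums of 3 endothelial and 4 melanocyte markers were 1.13 to 1.48 and 0.929 to 1.24 FPKM over all 6 libraries. The 11 epithelial markers summed to 1620 to 1630 FPKM with mock and 2080, 1660 and 1650 FPKM in TRPV3 replicates 1 to 3. TRPV3 replicate 1 was above the rest here, and also in the sum over all tested genes (319000 FPKM, against 259000 to 278000 elsewhere). KRT7, KRT8, KRT18, MUC1, EPCAM and PPARG (9.37 FPKM, against 6.98 to 8.28 in the other 5 libraries) were highest in it. The lipid enzymes FASN (47.7 FPKM, against 62.1 to 71.4) and SCD (170 FPKM, against 208 to 252) were lowest in it. SOAT1 (12.9 FPKM, against 12.3 to 13.6) and PLIN2 (1.81 FPKM, against 1.4 to 1.89) lay inside the range of the others. The part of this in the results was not tested. TRPV3 replicate 1 also stood apart from the other 5 libraries in genes of short and of long coding sequence, as given below for these genes, and values without it are given beside the fold changes.

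No gene of replication or mitosis changed with TRPV3 by the test. Of the 38, 0 rose and 0 fell at a limma adjusted p under 0.05, where 0.0411% of all 12177 tested genes rose and 0% fell; the lowest adjusted p among the 38 was 0.755. Before adjustment, a p under 0.05 was reached by 0 of 38 too, by limma and by limma-voom on the recovered reads, against 4.48% of all genes by limma. Fitted log2 fold changes of FPKM + 1, TRPV3 minus mock, lay between -0.32 (MKI67) and 0.19 (AURKB), with 23 above and 15 below 0 and a median of 0.02, beside 0.01 over all tested genes. Without TRPV3 replicate 1 they lay between -0.11 (TYMS) and 0.17 (CCNE2), with 13 above and 25 below 0, and 0 passed (lowest limma adjusted p = 0.754).

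How large a change these libraries could have hidden is given by the 95% intervals of the fold changes. With all libraries the interval lay within 0.5 log2 units of 0 for 33 of the 38 genes, and the other 5 were MKI67, TOP2A, CENPF, AURKB and UBE2C. The widest was that of MKI67, from -0.96 to 0.32. Without TRPV3 replicate 1 all 38 intervals lay within 0.5 log2 units of 0, the outermost bounds being -0.35 (MKI67) and 0.40 (CCNE2). That library was the highest or lowest of the 6 for 33 of the 38 genes. Leaving it out thus also takes out much of the spread (SE of MKI67 0.142, against 0.271). These narrower intervals are no bound for all 6 libraries. The groups did not overlap for 2 genes with every TRPV3 library above every mock library (5.26% of the 38, against 9.49% of all tested genes) and for 1 with every TRPV3 library below (2.63%, against 5.39%), both shares under the background.

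**Figure D1:**
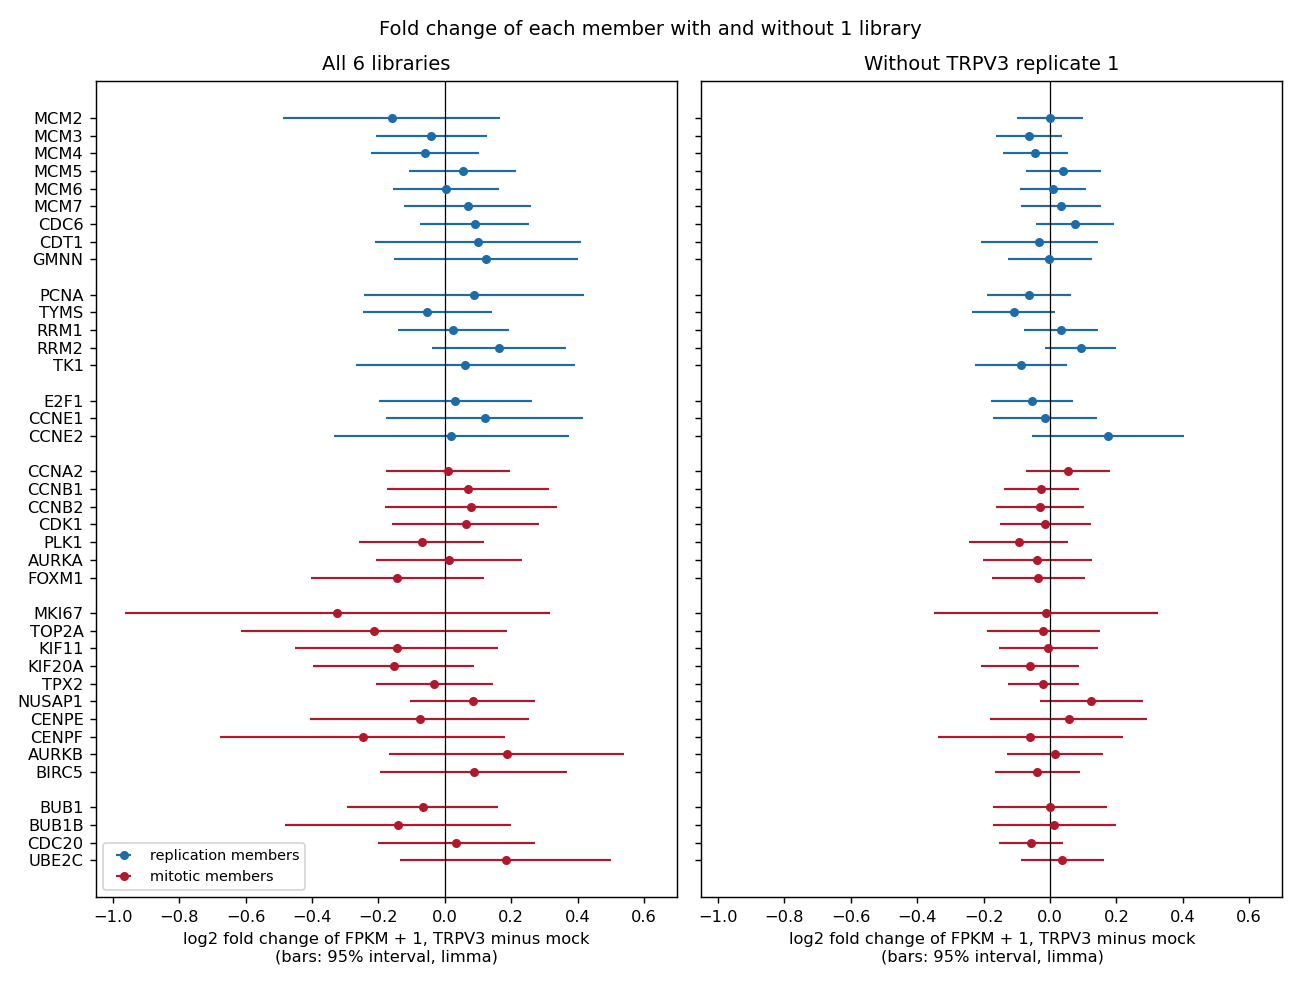
Log2 fold change of FPKM + 1 (x axis, TRPV3 minus mock) for each of the 38 genes, ordered by role, with all 6 libraries (left) and without TRPV3 replicate 1 (right); points are limma estimates and bars 95% intervals. Every interval crosses 0 in both panels, and the intervals on the right are within 0.5 log2 units of 0.

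Taken by role, the replication genes had a median log2 fold change of 0.055 (13 of 17 above 0), which was below 0 with TPM scaling (-0.040) or quantile normalization (-0.067), and the mitotic genes of -0.031 (10 of 21 above 0; -0.128 and -0.121 with these scalings). The mitotic minus the replication median was -0.085, where the spread of that difference between single libraries of a group had an SD of 0.082. That SD is not an SE of the difference between the groups, and TRPV3 replicate 1 is part of it. Per library, the mitotic minus the replication median (each gene set against its mean over the mock libraries) was 0.076, 0.001 and -0.064 in mock replicates 1 to 3 and -0.17, -0.032 and 0.002 in TRPV3 replicates 1 to 3. Only TRPV3 replicate 1 lay outside the range of the mock libraries. Without it the medians were -0.002 for replication genes and -0.02 for mitotic genes. These medians are descriptions and carry no test.

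The licensing group holds the 6 subunits of the MCM helicase and the factors that load it and restrain it. Values here and below are FPKM in mock replicates 1, 2 and 3, then in TRPV3 replicates 1, 2 and 3. MCM2 (chromosome 3, 127598223 to 127622436, plus strand, hg38) was at 54.3, 54.4 and 53.4 with mock and 38.4, 53.3 and 54.8 with TRPV3. Its TRPV3 replicate 1 was far below the other 5 libraries, which lay between 53.3 and 54.8 FPKM. The log2 fold change was -0.16 with an SE of 0.14 (limma adjusted p = 0.755) and 0.00 without that library. MCM3 was at 66.2, 67.0 and 67.8, then 67.3, 64.6 and 63.5 (log2 fold change -0.04; -0.064 without TRPV3 replicate 1), and MCM6 at 50.1, 49.7 and 50.6, then 49.9, 51.0 and 49.9 (0.004). MCM6 was among the steadiest of all 38, with overlapping groups and a 95% interval from -0.16 to 0.16. MCM4 was at 59.1, 58.9 and 57.8, then 55.1, 56.8 and 56.8 FPKM. It is the 1 gene with every TRPV3 library below every mock library, with a fold change of -0.06 on the log2 scale and an SE of 0.07 (limma adjusted p = 0.774). MCM5 and MCM7 had 0.055 and 0.069, or 0.04 and 0.033 without TRPV3 replicate 1.

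Per kilobase of annotated exon, the MCM subunits stood in the order MCM7, MCM3, MCM4, MCM2, MCM6, MCM5 in 5 of 6 libraries, and in TRPV3 replicate 1 MCM2 was below MCM6. Their mean FPKM with mock ran from 29.4 ± 0.785 (MCM5) to 114 ± 3.94 (MCM7), both SD with n = 3, although the subunits sit in the helicase in equal numbers. The lengths used are those of all annotated exons merged, 7338 bases for MCM5 with a longest coding sequence of 2202, and 4386 bases for MCM7 with one of 2157, so the levels per kilobase of the RNA actually made may stand in another order. MCM4, MCM2 and MCM6 were neighbours in that order, and the 3 mock libraries of each did not overlap with those of the next.

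CDC6, which loads the helicase at origins (chromosome 17, 40287633 to 40304657, plus strand), was at 28.9, 27.0 and 27.3, then 30.2, 29.2 and 29.4 FPKM. All TRPV3 libraries were above all mock libraries, by 0.09 on the log2 scale with an SE of 0.07 (limma adjusted p = 0.755), or 0.075 without TRPV3 replicate 1. CDT1, its partner in loading, was at 41.5, 46.3 and 47.9, then 58.4, 46.1 and 42.2, and GMNN, the geminin that blocks CDT1, at 18.1, 17.2 and 18.7, then 23.6, 18 and 17.9. In both, TRPV3 replicate 1 was the highest library and replicates 2 and 3 lay inside the range of mock. On the log2 scale CDT1 had 0.10, or -0.03 without it, and GMNN had 0.12, or -0.002.

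The clamp and nucleotide group makes the building blocks of DNA and holds the polymerase on it. PCNA, the sliding clamp (chromosome 20, 5114953 to 5126626, minus strand), was the most abundant of the 38 at 205, 212 and 224, then 280, 208 and 201 FPKM. TRPV3 replicate 1 was above all other libraries while replicate 3 was the lowest of the 6, and the log2 fold change of 0.09 (SE 0.14) was -0.06 without replicate 1. RRM2, the small subunit of ribonucleotide reductase whose level is known to rise in S phase (chromosome 2, 10120698 to 10131419, plus strand), was at 32.0, 32.8 and 31.5, then 39.8, 34.6 and 33.9 FPKM. All TRPV3 libraries were above all mock libraries, and this was the largest fold change among the 17 replication genes, 0.16 on the log2 scale with an SE of 0.09 (limma adjusted p = 0.755), or 0.09 with an interval from -0.01 to 0.20 without TRPV3 replicate 1. TYMS, the thymidylate synthase, was at 22.8, 22.2 and 23.4, then 23.9, 21.8 and 20.3. Its groups overlapped (log2 fold change -0.05; -0.11 without TRPV3 replicate 1). RRM1, the large reductase subunit, had 0.026 (0.034 without TRPV3 replicate 1). TK1, the thymidine kinase of dividing cells, had 0.062, and -0.088 without that library.

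At the G1/S switch, the factor E2F1 was at 53.5, 51.6 and 51.9, then 60.5, 52.6 and 48.3 FPKM, with the TRPV3 libraries on both sides of mock (log2 fold change 0.03, 95% interval -0.20 to 0.26; -0.054 without TRPV3 replicate 1). CCNE1, the cyclin E1 partner of CDK2, was at 6.83, 6.60 and 6.56, then 9.05, 6.20 and 6.99 (0.12; -0.01 without TRPV3 replicate 1). CCNE2, its low-abundance relative, was at 2.60, 2.56 and 2.08, then 1.79, 2.73 and 2.96 (0.02; 0.17 without TRPV3 replicate 1). TRPV3 replicate 1 was thus the highest of the 6 libraries for CCNE1 and the lowest for CCNE2. INTS8, on the opposite strand, shares 1629 of the 4397 exonic bases of CCNE2 and was at 5.03 FPKM on average, and reads of the 2 genes cannot be told apart without the strand setting of the counting.

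**Figure D2:**
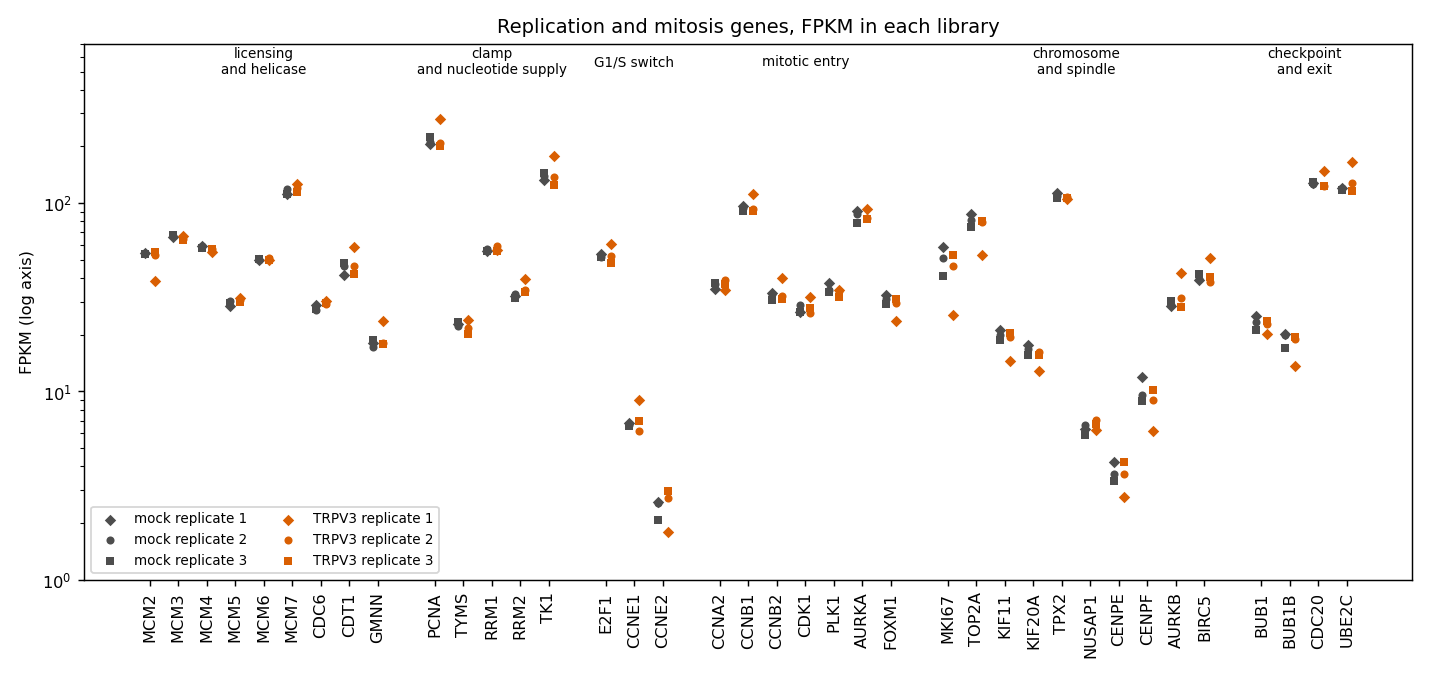
FPKM (log axis) of the 38 genes in each of the 6 libraries, by role; grey marks are mock and orange marks TRPV3 libraries, with the shape giving the replicate. Most groups overlap, and the orange diamond, TRPV3 replicate 1, is the highest of the 6 libraries in 19 genes and the lowest in 14.

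The genes of mitotic entry encode the cyclins and kinases that start mitosis. CDK1, the kinase at the centre of it, was at 26.5, 28.7 and 26.4, then 31.7, 26.0 and 27.8 FPKM (log2 fold change 0.06, 95% interval -0.16 to 0.28). Its partner CCNB1, cyclin B1, was at 96.3, 94.2 and 90.6, then 112, 93.6 and 90.4 (0.07), and CCNB2 at 33.2, 33.1 and 30.5, then 39.9, 32.3 and 30.9 (0.08). In all 3 the highest library was TRPV3 replicate 1 and the other TRPV3 libraries lay close to mock, so that without it the log2 fold changes were -0.01, -0.03 and -0.03. Of the other members of the group, CCNA2, the cyclin of S phase and G2, had 0.011 (0.054 without TRPV3 replicate 1), the kinases AURKA and PLK1 had 0.013 and -0.069 (-0.038 and -0.094 without it), and FOXM1, a factor that drives mitotic genes, had -0.14 (-0.035 without it). None of the 7 passed.

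The chromosome and spindle group held both ends of the range. MKI67, which encodes the Ki-67 protein at the surface of mitotic chromosomes (chromosome 10, 128096659 to 128126385, minus strand), was at 58.8, 51.3 and 40.9, then 25.4, 46.1 and 52.8 FPKM. It varied among the mock libraries too, and the difference of -0.32 on the log2 scale, with an SE of 0.27 (limma adjusted p = 0.755), was -0.01 without TRPV3 replicate 1. TOP2A, the topoisomerase that untangles sister chromatids, was at 88.1, 81.4 and 74.5, then 53.2, 79.4 and 80.6 (-0.21; -0.02 without that library). CENPF, a protein of the outer kinetochore, was at 11.9, 9.58 and 8.90, then 6.17, 9 and 10.2 (-0.25; -0.06 without it). In all 3, TRPV3 replicate 1 was the lowest library and replicates 2 and 3 lay within the range of mock.

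Among the motor proteins, KIF11 was at 21.3, 20 and 18.8, then 14.6, 19.5 and 20.4 FPKM (-0.145; -0.005 without TRPV3 replicate 1), and KIF20A, needed for the division of the cell body, at 17.6, 16.8 and 15.7, then 12.9, 16.3 and 15.6 (-0.15; -0.06 without it). As in MKI67, TRPV3 replicate 1 was the low library of both. AURKB, the kinase of the chromosomal passenger complex (chromosome 17, 8204733 to 8210600, minus strand), was at 28.5, 28.9 and 30.3, then 42.6, 31.2 and 28.0. BIRC5, the survivin of the same complex, was at 39.2, 39.8 and 42.2, then 51.3, 38.2 and 40.4. Here TRPV3 replicate 1 was the high library. AURKB had 0.19 on the log2 scale and BIRC5 0.09, or 0.015 and -0.04 without it. NUSAP1, a protein that bundles spindle microtubules, was at 6.30, 6.60 and 5.88, then 6.27, 7.06 and 6.76 (0.08; 0.12 without it). AC087721.2, on the same strand and at 0.00 FPKM, shares 62.2% of the exonic bases of NUSAP1, and whether reads of the shared bases were counted was not tested. TPX2, which seeds spindle microtubules, and the kinetochore motor CENPE had -0.031 and -0.076, or -0.021 and 0.056 without TRPV3 replicate 1.

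In the checkpoint and exit group, UBE2C, the ubiquitin-conjugating enzyme of the anaphase-promoting complex, was at 120, 120 and 117, then 166, 128 and 116 FPKM (0.18 on the log2 scale with an SE of 0.135, limma adjusted p = 0.755; 0.04 without TRPV3 replicate 1). CDC20, the activator of that complex, had 0.035, and -0.057 without that library. The checkpoint kinases BUB1 and BUB1B had -0.067 and -0.141, or -0.001 and 0.013 without it. Shared exons touched 12 of the 38 genes in the GENCODE 29 models, with over 10% of the bases in 8, among them TYMS (46.6%, mainly ENOSF1 on the opposite strand), RRM2 (20.2%) and MCM2 (23.6%). Pseudogenes named after these genes were at most at 1.23 FPKM (UBE2CP2).

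The deviations in TRPV3 replicate 1 went with the length of the coding sequence. In that library 33 of the 38 genes were at 1 end of the 6 libraries, 19 at the top and 14 at the bottom. That count over all tested genes is not given here. Of 18 genes with a longest coding sequence under 1500 bases, 16 were above their mock mean in TRPV3 replicate 1. So were 4264 of all 5775 tested genes of that class. The median deviations were 0.28 and 0.21 log2 units. Of 13 genes with 1500 to under 3000 bases, 6 were above (median -0.006), as were 1259 of all 3371 genes (median -0.09). Of 7 genes with 3000 bases or more, 0 were above, from -0.20 (BUB1) to -0.95 (MKI67), with a median of -0.45. Over all 1487 genes of that class 95 were above, with a median of -0.42. The median deviation of the genes of 3000 bases or more was -0.03 and 0.03 in TRPV3 replicates 2 and 3, and 0.12, 0.004 and -0.12 in mock replicates 1 to 3.

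Across the 38 genes, the deviation in TRPV3 replicate 1 and the log10 of the coding length had a Pearson r of -0.84, against -0.34 and 0.31 in TRPV3 replicates 2 and 3. The r was 0.71, -0.02 and -0.68 in mock replicates 1 to 3, and over all 10633 tested coding genes it was -0.64 in TRPV3 replicate 1. The fold changes with all libraries had an r of -0.81 with coding length, and those without TRPV3 replicate 1 an r of 0.01. These r are across genes of the same libraries and are descriptions. All 7 genes of 3000 coding bases or more (MKI67, CENPF, CENPE, TOP2A, BUB1, BUB1B and KIF11) are mitotic, whereas no replication gene reaches that length. Under 1500 bases the median log2 fold change was 0.075 for 8 replication genes and 0.075 for 10 mitotic genes. From 1500 to under 3000 bases it was 0.026 for 9 replication genes and -0.106 for 4 mitotic genes, or 0.010 and -0.047 without TRPV3 replicate 1. A curve on merged exon length, not coding length, was subtracted from each library. The medians were then 0.009 for all replication genes and -0.059 for all mitotic genes. Merged exon length had an r of -0.76 with the deviation in TRPV3 replicate 1 across the 38 genes, and -0.32 over all tested genes. No curve on coding length was subtracted. What set the length pattern in this library was not tested. MCM2, with 2712 coding bases, was the replication gene that deviated most from its mock mean in it, by -0.48, where MCM4 with the same coding length deviated by -0.09.

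**Figure D3:**
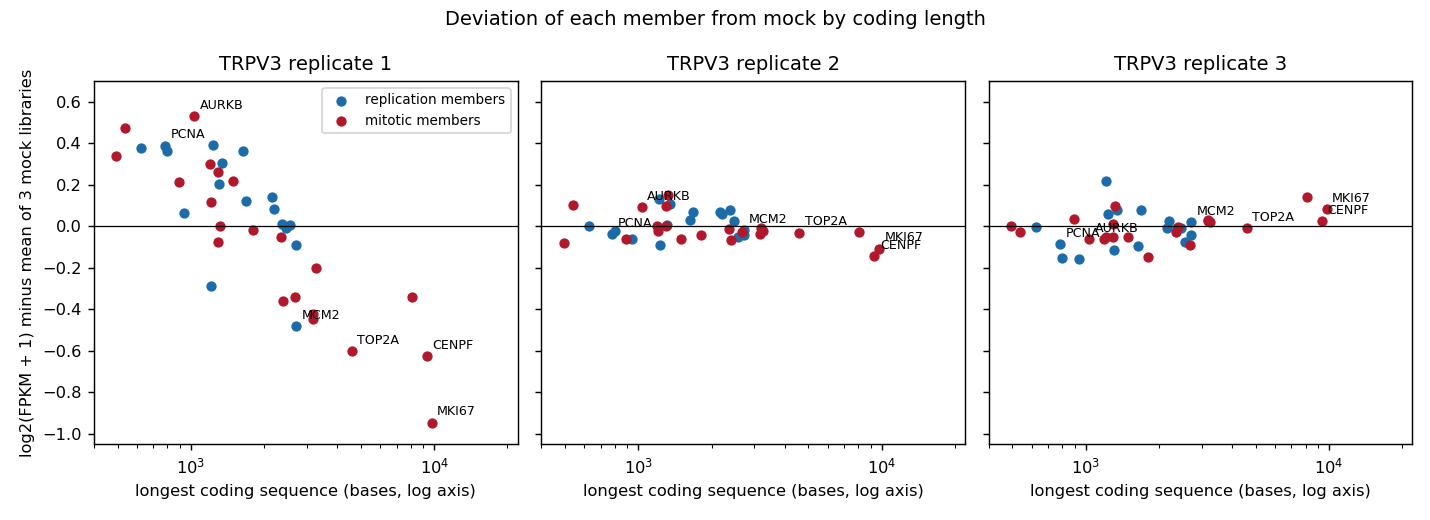
Deviation of each of the 38 genes from its mock mean (y axis, log2 units) against its longest coding sequence (x axis, bases, log axis) in TRPV3 replicates 1, 2 and 3. Points slope down from AURKB to MKI67 in replicate 1, where r is -0.84, and lie between -0.16 and 0.22 in replicates 2 and 3.

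As a sum, the 38 genes held 2000, 2000 and 1960 FPKM in the mock libraries and 2170, 1980 and 1930 FPKM in the TRPV3 libraries. The TRPV3 sums lie on both sides of mock. All tested genes together held 273000, 276000 and 259000 FPKM with mock and 319000, 278000 and 272000 FPKM with TRPV3. TRPV3 replicate 1 was thus the highest library in that total too. As a share of recovered reads, to which long genes add more, they held 0.75%, 0.74% and 0.733% with mock and 0.683%, 0.718% and 0.719% with TRPV3, every TRPV3 library below every mock library. The order by library thus differed between the FPKM sums and the read shares. These differ in the scaling of each library as well as in division by length. Which of these set the order was not tested. Neither sum has a test.

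Genes with E2F and with CHR letters overlapped in their fold changes. The 12 genes with an E2F match had log2 fold changes from -0.16 to 0.12, with a median of 0.07, and the 10 with a CHR but no E2F match had -0.32 to 0.08, with a median of -0.11. Without TRPV3 replicate 1 the medians were -0.008 and -0.02. MCM6 and E2F1, whose E2F letters are printed, had 0.004 and 0.032 (0.01 and -0.054 without it), and CCNB2 and PLK1, whose CHR letters are printed, had 0.079 and -0.069 (-0.03 and -0.094 without it).

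Other genes, from cell cycle lists that hold none of the 38, gave a count of 0 as well. A place on a list, as for MRPL36 below, does not make a gene one of replication or mitosis. CDC25C, CDC45, E2F8, FEN1, GINS2, POLA1, POLD3, PRIM1 and RFC2 each stand on 2 of these lists. Fold changes given after "or" are those without TRPV3 replicate 1. Of 31 tested genes of an S phase list used to score single cells, 0 passed (17 above 0, median 0.01), from -0.28 (E2F8, or -0.13) to 0.22 (MRPL36, or 0.045). UHRF1, which carries DNA methylation through replication, and the checkpoint adaptor CLSPN were next lowest at -0.23 and -0.24 (or -0.115 and 0.101, so that CLSPN turned sign), and RFC2 and TIPIN next highest at 0.21 and 0.19 (or 0.091 and 0.121). Of 38 tested genes of the matching G2/M list 0 passed (16 above 0, median -0.03), from CBX5, SMC4 and NCAPD2 (-0.27, -0.25 and -0.24, or -0.091, 0.003 and -0.059) to CKS1B, CKS2 and JPT1 (0.21, 0.26 and 0.28, or 0.038, 0.11 and 0.077). SMC4 and NCAPD2 are condensin subunits, and CKS1B and CKS2 bind cyclin-dependent kinases. Of 33 genes of origins and forks 0 passed (20 above 0, median 0.06), from POLE, the catalytic subunit of the leading-strand polymerase (-0.19, or -0.005), POLA1 (-0.13, or -0.015) and POLD1 (-0.12, or -0.133) to the nuclease FEN1 (0.18, or 0.015), the clamp loader subunit RFC2 (0.21) and RPA3 (0.26, or 0.069), a subunit of the protein that coats single-stranded DNA. Without TRPV3 replicate 1 the medians of the 3 lists were 0.03, -0.002 and 0.02.

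**Figure D4:**
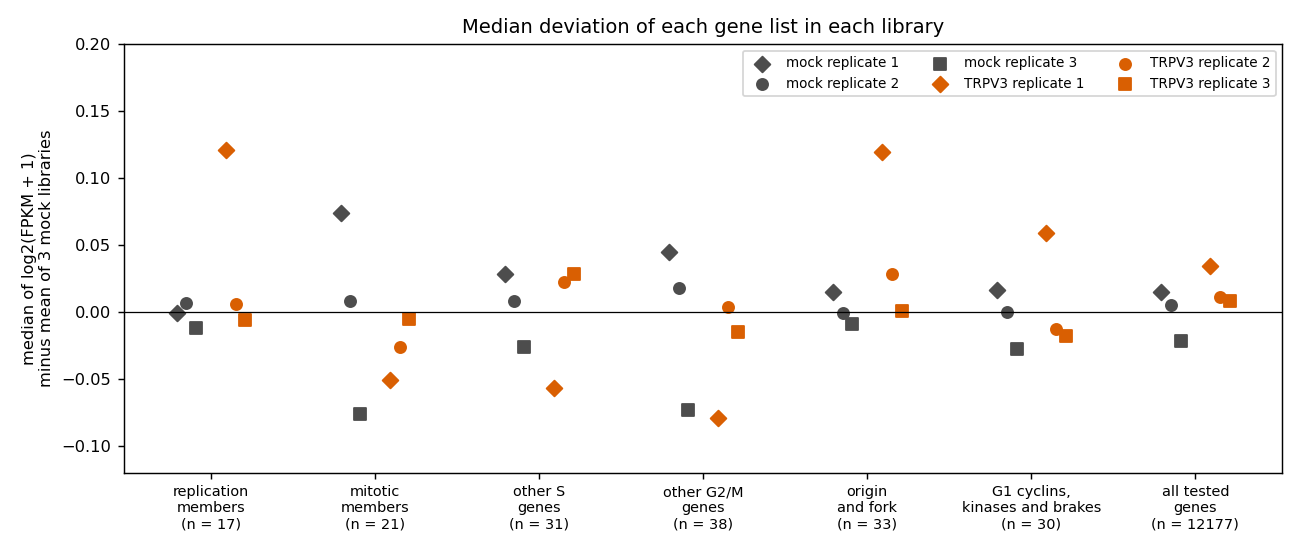
Median deviation from the mock mean (y axis, log2 units) of each gene list (x axis, n is the number of tested genes) in each of the 6 libraries; grey marks are mock and orange marks TRPV3 libraries. TRPV3 replicate 1 is above all other libraries for replication genes (0.12), and the mitotic genes of all 3 TRPV3 libraries lie between mock replicates 2 and 3.

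Of 30 tested genes on a list of G1 cyclins, kinases and brakes, 0 passed. That list also holds other E2F factors, TFDP1, TFDP2, MYBL2, LIN9, LIN54, CDC25A, CDC25B, CDC25C and WEE1, not all of them genes of G1. An unadjusted limma p under 0.05 was reached by 2 of the 30, a share to be read beside 4.48% of all tested genes. In 3 of the 30, as in 9.49% of all tested genes, every TRPV3 library was above every mock library. The 2 were both inhibitors of cyclin-dependent kinases. CDKN1A, which encodes p21, was at 32.9, 27.8 and 28.6 FPKM with mock and 38.5, 36.7 and 35.9 with TRPV3, and its groups did not overlap (0.31 on the log2 scale with an SE of 0.09, limma adjusted p = 0.755; 0.28 and adjusted p = 0.449 without TRPV3 replicate 1). CDKN2D, which encodes p19 of the INK4 family, was at 2.73, 3.12 and 2.48, then 5.51, 3.72 and 3.65 (0.47 with an SE of 0.15, limma adjusted p = 0.755; 0.315 and adjusted p = 0.498 without it), again with no overlap. CDC25A, a phosphatase that activates these kinases, had 0.186 (0.255 without it). The lowest of the list were E2F8 (-0.28, and -0.13 without TRPV3 replicate 1) and the retinoblastoma relatives RBL2 (-0.27) and RBL1 (-0.23), of which the last 2 had -0.04 and -0.05 without TRPV3 replicate 1.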

How the data were processed

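RNA of 6 libraries, 3 per group, was analysed. Per the labels' protocols, total RNA went into a NEBNext Ultra kit. The submitters' processing notes name HISAT2 2.0.5 and hg38. The sources used here do not name the counting tool or its strand option. The authors deposited FPKM per gene, scaled per library. The scaling factors equalled medians, over genes, of recovered reads relative to each gene's geometric mean over the libraries (largest deviation 3.71e-10%). They were not total reads per library. All 58735 gene models equalled those of GENCODE 29. FPKM times length gave whole reads for 100% of values (tolerance 0.02 reads), 16.0 to 18.4 M per library; 3 reads correspond to 0.165 to 0.185 FPKM at 1 kb (counting error only).

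Values were analysed as log2(FPKM + 1) for 12177 genes whose mean over the libraries reached 1 FPKM, with limma 3.58.1 in R 4.3.3 (group as the only term, mean-variance trend) and Benjamini-Hochberg adjustment over all genes tested; genes were called under 0.05. The pseudocount understates changes of low genes. The test was checked on simulated data. Figures used Python 3.11.15 and matplotlib 3.10.9.

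The 38 genes and the other lists were chosen with earlier results of these data known. Values in every library are given for called genes, the 5 highest and 5 lowest by fold change in each class, and MKI67, TOP2A, CCNB1, CDK1, PCNA, MCM2, CCNE1, CCNE2, CDC6 and E2F1; for other lists, fold changes of the 3 highest and 3 lowest are given, and, chosen after their values were seen, library values of those with an unadjusted p under 0.05. Alternatives were another pseudocount, filter, scaling and variance model, a replicate block, subtraction of a lowess curve on gene length (span 0.3), limma-voom on recovered reads and each library left out. Added after seeing the data were limma-voom without TRPV3 replicate 1 and limma without that library and mock replicate 3.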

Additional observations from a re-analysis of the deposited data

How the results depend on the processing

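None of the 38 genes passed (limma or limma-voom) under any of the 17 alternatives run, where the lowest adjusted p per alternative ran from 0.506 (limma, without TRPV3 replicate 3) to 0.966 (limma, without mock replicate 1). A filter of 5 FPKM left 36 of them to test. The sign of the fitted fold change was less steady: it differed from that with all libraries in 16 of the 38 genes with TPM scaling, 14 with quantile normalization, 10 with the gene-length trend removed, and 14 without TRPV3 replicate 1. The replication median of 0.055 became -0.040 with TPM scaling, -0.067 with quantile normalization and -0.016 with limma-voom without TRPV3 replicate 1, and the mitotic median of -0.031 became -0.128 and -0.121 with the first 2. With the gene-length trend (merged exons, not coding length) removed they were 0.009 and -0.059. With 1 library left out, the replication median ran from -0.002 to 0.096, the mitotic median from -0.051 to -0.009 and the mitotic minus replication median from -0.125 to -0.018. The median of all tested genes moved from 0.012 to -0.069 with TPM scaling; the cause of the other moves was not tested.

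Over all genes 5 were called, with 2 without a filter, 3 with a filter of 5 FPKM, 3 with the replicate block, 2 to 8 with 1 library left out, 9 without TRPV3 replicate 1 and mock replicate 3, and 72 with limma-voom without TRPV3 replicate 1. Under the replicate block 0 of the 38 were called. Same-numbered libraries of the 2 groups did not deviate together (r of -0.27, -0.04 and -0.17 for numbers 1, 2 and 3), so the numbers were not taken as pairs. Without TRPV3 replicate 1 and mock replicate 3, 1 of the 38 reached an unadjusted limma p under 0.05. Each gene had at least 139 reads per library.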
